A study of Mus musculus with 6 samples.

Results

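Long intergenic noncoding RNAs (lincRNAs) are transcripts longer than most small RNAs that arise between protein-coding genes and are not known to be read into protein. Some act in the nucleus as scaffolds, such as Neat1 in paraspeckles, some bind RNA-binding proteins or microRNAs, some only carry small RNAs in their introns, and for others the act of transcription or the DNA beneath them matters more than the RNA. In lymphocytes they are known mainly from work on T cells, and less so from group 2 innate lymphoid cells (ILC2s), the tissue-resident lymphocytes that make type 2 cytokines without an antigen receptor.

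The lincRNAs described here were chosen by their measured level over both groups: they were the 49 genes that the authors annotated as lincRNA and whose deposited normalized value averaged at least 5 over 6 libraries, out of 238 lincRNA rows among the 13824 rows of that table. The count table held 792 lincRNAs among 21017 genes. The libraries were total RNA of mouse lung ILC2s. IL-10-producing ILC2s (3 libraries) were compared with IL-10-negative ILC2s (3 libraries). Both came from the lungs of C57BL/6J mice aged 8 weeks with an IL-10GFP reporter, in which green fluorescence marks cells that switch on Il10. All mice had received rm-IL-33 (0.5 µg for each mouse) into the nose in 3 doses, and all sorted ILC2s had then spent 48 h in culture with IL-4, IL-7 and IL-2 (each at 10 ng/mL) before being sorted again by the reporter. Whether the 3 libraries of a group stem from different mice or cultures is not in the labels, and p-values therefore reflect the spread among these libraries alone, which may be technical. A lower level in bulk RNA can mean fewer cells that carry the transcript or less of it per cell, and these cannot be told apart.

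Levels are CPM (counts scaled to library size with TMM factors, as mean ± SD, n = 3 per group), and levels of different genes are compared as CPM per kb of exon, while shares of the summed CPM describe only where the counts lay. Log2 fold changes put IL-10-producing over IL-10-negative libraries. Calls are at an adjusted p under 0.05 in the quasi-likelihood F test of edgeR, with Benjamini-Hochberg adjustment over all 16654 genes tested, and every adjusted p below is from it unless another tool is named. Library totals ran from 47012941 to 69511433 counts, and the smallest count of any of the 49 genes in any library was 136. Il10 stood at 848 ± 7.78 CPM in IL-10-producing libraries and 13.5 ± 0.608 CPM in IL-10-negative libraries, which checks the labels only, since the reporter sorted the cells. All 11 ILC2 markers averaged above 1 CPM in both groups, with sums of 15186 to 15340 CPM in IL-10-producing libraries and 14670 to 14837 CPM in IL-10-negative libraries. Single markers differed within these sums, with 4 called higher (Il2ra and Klrg1 among them) and 6 lower (among them Gata3, Rora and Il1rl1).

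Markers of other cell types differed between the groups. The 12 T-cell markers summed to 115 to 118 CPM in IL-10-producing libraries and 184 to 190 CPM in IL-10-negative libraries, with 11 lower and 1 higher. Of these, 7 averaged under 1 CPM in IL-10-producing libraries and none did in IL-10-negative libraries, and Cd8b1 was at 0 in 1 IL-10-producing library. The 8 mast-cell and basophil markers summed to 12.7 to 14.6 against 69.5 to 74.5 CPM, all 8 lower, and the 3 neutrophil markers tested, of 6 listed, summed to 1.08 to 1.75 against 33.9 to 37.5 CPM, all 3 lower. In IL-10-negative libraries that sum was mostly Mpo at 30.6 CPM, with Elane at 4.15 and S100a9 at only 0.456 CPM. It therefore does not show that mature neutrophils were present. The 6 B-cell markers summed to 47.9 to 49.6 against 38.1 to 38.9 CPM, with 2 higher (Ighm and Igkc) and 3 lower. Of the NK-cell markers, 3 were tested (sums of 5.71 to 6.69 against 8.77 to 9.65 CPM, 1 higher and 2 lower), and of the macrophage markers 5 (5.80 to 6.30 against 6.08 to 7.59 CPM, 1 higher and 3 lower). Every lincRNA below was measured in the same libraries, and whether other cell types had a part in its values was not tested.

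Of the 49 lincRNAs, 12 were higher and 10 lower in IL-10-producing ILC2s, and 27 were not called. The called share was 44.9%, against 35.7% of all genes tested and 47.6% of genes with a mean level inside the range of the 49. The share was thus near that of genes in this range, which were not matched to the 49 by level. By direction, 24.5% were higher and 20.4% lower, against 17.1% higher and 18.6% lower over all genes. Among the 390 lincRNAs tested that lay below the threshold, 15.4% were called, 2.82% higher and 12.6% lower. Calls by gene type were 18.7% of all 439 lincRNAs tested (5.24% higher, 13.4% lower), 11.6% of antisense RNAs (4.46% higher, 7.17% lower), 16.7% of processed transcripts (5.16% higher, 11.5% lower) and 41.6% of protein-coding genes (19.5% higher, 22.1% lower). For genes with a mean level inside the range of the 49 the shares were 24.7% higher and 22.9% lower. The median log2 fold change of the 49 was 0.0064 against -0.0038 for all genes, and the median size of a change was 0.136 against 0.140. No lincRNA of the 49 changed by 2-fold or more, against 3.66% of all genes called at that size, and the log2 fold changes ran from -0.59 to 0.58. The groups did not overlap for 24 of the 49 (48.98%, against 45.2% of all genes), of which 5 were not called, and 3 called lincRNAs (Gm10076, Gm42047 and Gm4316) had overlapping groups. With library size only as the scaling, 9 were higher and 14 lower, and over all genes the higher share of calls was 36.8%, against 47.8% with TMM factors.

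Together the 49 took 0.509 ± 0.0014% of the counts in IL-10-producing and 0.514 ± 0.00069% in IL-10-negative libraries, and their CPM summed to 5143 ± 38.0 and 5089 ± 9.73. The 10 with the highest CPM held 82.7% of that sum. Per kb of exon, the levels ran from 0.086 to 1038 CPM with a median of 4.79, and these levels are a description, since a level chose the genes. The members nearest the threshold were Gm26885, Snhg20 and Gm38102, with normalized values of 5.14, 5.08 and 5.07. Just outside lay Gm26880, Trp53cor1 and Gm17300 at 4.95, 4.92 and 4.80. A mean of 5 was reached in both groups by 44, through the IL-10-producing libraries only by AC160336.1 and Gm26885, and through the IL-10-negative libraries only by 4932422M17Rik, Snhg20 and Gm38102, and for these 5 the direction is tied to the way they entered. Without them, 11 were higher and 7 lower.

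**Figure D1:**
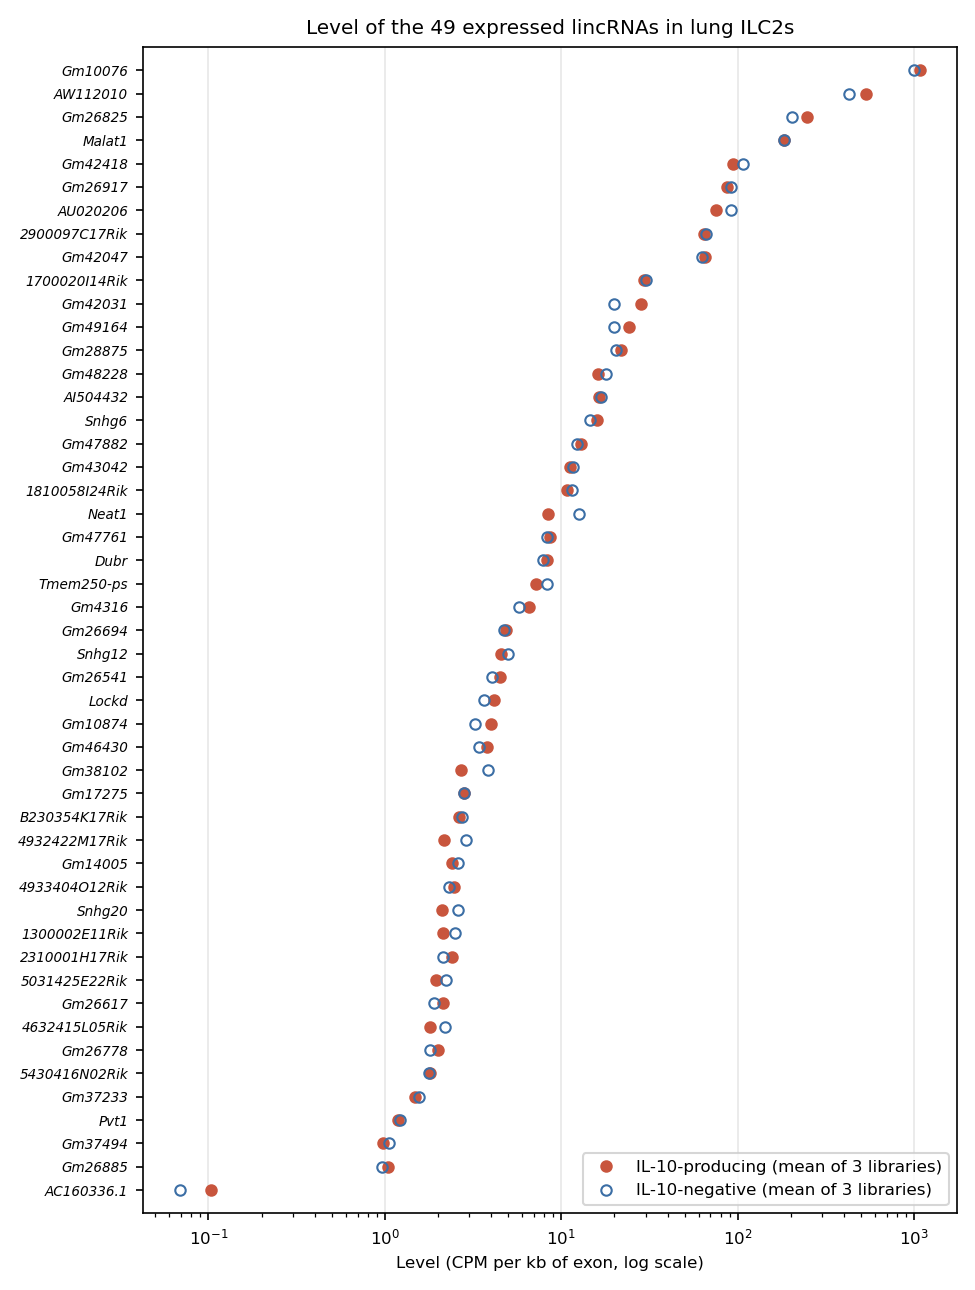
Level of each of the 49 lincRNAs in CPM per kb of exon on a log axis, as the mean of 3 IL-10-producing libraries (filled) and 3 IL-10-negative libraries (open). Gm10076 lies at the top at 1038 CPM per kb over the 6 libraries and AC160336.1 at the bottom at 0.086, and for most genes the group means nearly coincide on this scale.

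**Figure D2:**
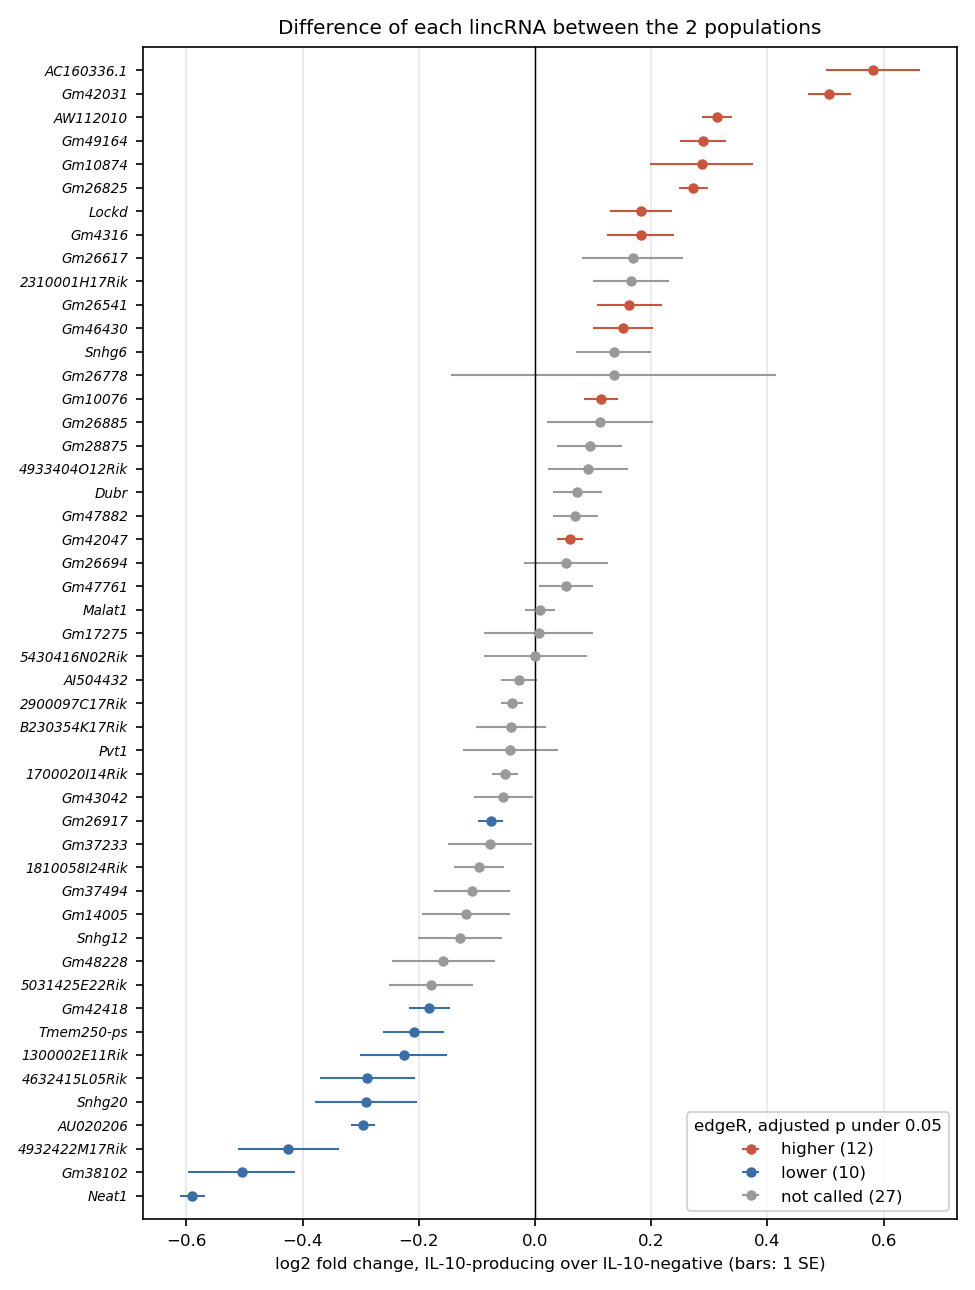
Log2 fold change (IL-10-producing over negative) of each of the 49 lincRNAs with 1 SE, coloured by the call in edgeR at an adjusted p under 0.05. The 12 higher lincRNAs reach 0.58 (AC160336.1) and the 10 lower ones reach -0.59 (Neat1), and Gm26778 has the widest bar. AC160336.1, 4932422M17Rik, Snhg20 and Gm38102 reached the mean of 5 only through the group where they are higher.

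The sequences that bear on the results come first. In mouse, 2900097C17Rik, which RefSeq names Norad, is the counterpart of a human cytoplasmic lincRNA that binds Pumilio proteins, which repress mRNAs. The Pumilio element TGTANATA, searched on the transcript's strand, occurred 11 times in its 4915 bases (2.24 per kb), against 0.123 per kb pooled over 5936 lincRNA genes of GENCODE M21, of which 13.9% held any. Of 2953 such genes of at least 1000 bases, it was the only one with as many elements, and 2 genes, itself included, reached its density. A stretch of 240 bases with 3 elements in capitals (GRCm38, chr2:156390522-156390761, minus strand) read
Norad: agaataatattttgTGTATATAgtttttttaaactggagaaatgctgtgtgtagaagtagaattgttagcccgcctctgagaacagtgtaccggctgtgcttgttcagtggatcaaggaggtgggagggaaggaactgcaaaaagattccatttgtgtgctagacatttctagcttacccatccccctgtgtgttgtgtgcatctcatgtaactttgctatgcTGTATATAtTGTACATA

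Cyrano (1700020I14Rik, Oip5os1 in RefSeq) is known for a long, nearly perfect site for miR-7, through which it lowers that microRNA in mouse brain. The letters complementary to the miR-7 seed occurred 2 times in its 8300-base transcript. The better site (GRCm38, chr2:119602132-119602161, plus strand) paired 22 of the 23 bases of miR-7a, and the other paired 15. Capitals mark the seed in the microRNA (RefSeq, GRCm38.p6) and its complement in the site.
mmu-miR-7a-5p: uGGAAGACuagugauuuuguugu
Cyrano site: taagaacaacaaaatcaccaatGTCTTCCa

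Snhg20, a host of small nucleolar RNAs, also holds a microRNA on its own strand (RefSeq, GRCm38.p6, chr11:117077370-117077391 and chr11:117077412-117077433), whose arms with the seeds in capitals were
mmu-miR-6516-5p: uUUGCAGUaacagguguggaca
mmu-miR-6516-3p: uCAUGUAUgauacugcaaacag

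Gm26825 is shown because its value may include reads of other genes. On the opposite strand, 91.8% of its exons overlap the processed pseudogene Gm15459, which was higher at 821 against 787 CPM (a log2 fold change of 0.06, adjusted p = 0.00919). Its transcript is, on the opposite strand, nearly that of Hspa8, the constitutive cytosolic HSP70 chaperone. Over 1940 aligned bases the identity was 99.6%, with 5 mismatches and 3 gap positions. A stretch of 150 bases within the Hspa8 coding sequence (GRCm38, chr9:40802739-40802888, plus strand) and the matching stretch on the minus strand of the Gm26825 locus (chr5:5782995-5783144) differed at 2 positions, in capitals.
Gm26825 locus, minus strand: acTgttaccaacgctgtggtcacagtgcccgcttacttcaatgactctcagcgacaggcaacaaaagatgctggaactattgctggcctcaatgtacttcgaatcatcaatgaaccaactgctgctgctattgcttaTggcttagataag
Hspa8: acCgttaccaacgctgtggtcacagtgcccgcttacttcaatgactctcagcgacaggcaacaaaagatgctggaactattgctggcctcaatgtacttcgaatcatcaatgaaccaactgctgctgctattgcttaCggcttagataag

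Promoters from RefSeq (GRCm38.p6, 250 bases before to 50 after the start, 300 in all) were matched for 23 of the 49, in 26 windows. Motifs were searched on both strands, with any overlap allowed. The GATA letters AGATAA were in 3 windows (11.5%, against 11.2% of all 32851 promoters), the STAT letters TTCNNNGAA in 3 (11.5% against 8.30%) and the longer-spaced STAT6 motif in 2 (7.69% against 6.95%). AP-1 (TGANTCA) was in 2 (7.69% against 7.81%), the cyclic AMP element TGACGTCA in 2 (7.69% against 1.79%) and the E-box CACGTG in 1 (3.85% against 7.15%). The shares rest on so few windows that no difference from all promoters is drawn. Of lincRNAs called below, Gm4316 held the first STAT letters, Gm42031 the GATA letters and 1300002E11Rik the cyclic AMP element. Their RefSeq starts lay 7307, 475 and 29 bases from the deposited ones. The 2 AP-1 windows belonged to starts of Gm14005 and 1810058I24Rik that lay 73414 and 4337 bases away. Windows that far off may not be promoters of the counted transcripts. The windows of Gm42031 and 1300002E11Rik, whose RefSeq starts lie nearest the deposited ones, are given with the match in capitals, at chr8:85131765-85132064 (minus strand) and chr16:21794097-21794396 (plus strand). A match is a description of letters and not a bound site.
Gm42031 promoter: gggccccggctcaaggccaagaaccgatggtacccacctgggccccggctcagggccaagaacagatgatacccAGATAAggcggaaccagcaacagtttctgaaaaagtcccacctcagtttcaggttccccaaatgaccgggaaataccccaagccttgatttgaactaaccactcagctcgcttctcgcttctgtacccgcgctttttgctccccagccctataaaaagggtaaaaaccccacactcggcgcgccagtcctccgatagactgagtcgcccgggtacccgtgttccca
1300002E11Rik promoter: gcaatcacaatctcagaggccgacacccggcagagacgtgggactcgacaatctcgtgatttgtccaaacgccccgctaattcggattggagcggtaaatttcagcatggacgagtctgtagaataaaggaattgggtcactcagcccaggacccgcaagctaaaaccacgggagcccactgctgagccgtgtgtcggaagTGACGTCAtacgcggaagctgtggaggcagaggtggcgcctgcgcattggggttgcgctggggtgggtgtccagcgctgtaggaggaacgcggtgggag

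Among lincRNAs of nuclear bodies, Neat1 fell and Malat1 was not called. Neat1 (ENSMUSG00000092274.2, GRCm38 chromosome 19, 5824708 to 5845478, minus strand, a single exon) is the RNA around which paraspeckles form. It stood at 175, 174 and 171 CPM in IL-10-producing libraries and at 257, 267 and 259.6 CPM in IL-10-negative libraries. Every IL-10-producing library was below every IL-10-negative one, at 174 ± 2.07 against 261 ± 5.04 CPM (a log2 fold change of -0.59, SE 0.022, adjusted p = 5.77e-17). This was the lowest log2 fold change of the 49. Counts are per gene and do not tell transcript forms of Neat1 apart, and paraspeckles were not measured.

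Malat1 (ENSMUSG00000092341.2), an abundant nuclear speckle RNA transcribed from the neighbouring gene region, took 25.03% of the CPM of the 49. It had 1267, 1369 and 1216 CPM in IL-10-producing libraries and 1275, 1277 and 1277 CPM in IL-10-negative libraries. The IL-10-producing libraries lay on both sides of the tightly placed IL-10-negative ones, at 1284 ± 77.9 against 1276 ± 1.34 CPM (a log2 fold change of 0.01, adjusted p = 0.825), and the sign turned with library size only (-0.02) and without IL-10-producing replicate 2 (-0.04). Within a library, the ratio of Neat1 to Malat1 was 0.138, 0.127 and 0.141 in IL-10-producing and 0.202, 0.209 and 0.203 in IL-10-negative libraries. These ratios did not overlap (two-sided exact permutation p = 0.1, the smallest that 3 against 3 libraries allow, for each of 4 ratios chosen after the values were seen). Since Malat1 was not called, the ratio mainly restates the Neat1 difference. The third gene of this list, Miat, had too few counts to be tested.

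AW112010 was the highest by level per kb among the lincRNAs without a matching copy, at 531 CPM per kb in IL-10-producing and 427 CPM per kb in IL-10-negative libraries. This RNA of chromosome 19 (ENSMUSG00000075010.4, 11047617 to 11050566, minus strand) is known in mouse macrophages to be translated from a non-AUG start, despite its annotation, and in mouse T cells to restrain Il10 transcription. It had 429.5, 404 and 448 CPM in IL-10-producing libraries, against 342, 346 and 342 CPM in IL-10-negative libraries. All IL-10-producing libraries were higher, at 427 ± 22.1 against 343 ± 2.06 CPM (a log2 fold change of 0.31, SE 0.026, adjusted p = 2.99e-10).

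Gm42031 (ENSMUSG00000110386.1, chromosome 8, 85125872 to 85132289, minus strand), whose function is not known, had 51.6, 54.2 and 53.5 CPM in IL-10-producing libraries and 36.5, 38.4 and 37.2 CPM in IL-10-negative libraries. The groups were well apart (log2 fold change 0.51, SE 0.037, adjusted p = 4.59e-11). Stretches of its transcript, 56.7% of its length in all, matched the opposite strand of transcripts of Cnbd2 on another chromosome at 96.0% identity over the longest stretch. AC160336.1 (ENSMUSG00000115801.1) had the highest log2 fold change of the 49, at 9.81, 9.40 and 9.62 CPM in IL-10-producing libraries and 5.89, 6.60 and 6.73 CPM in IL-10-negative libraries (a log2 fold change of 0.58, SE 0.081, adjusted p = 2.1e-06). It is a single annotated exon of 93147 bases, so its level per kb was the lowest, at 0.103 against 0.0688 CPM per kb. AC160336.1 reached the mean of 5 only through the IL-10-producing libraries, so its direction is tied to the way it entered.

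AU020206 (ENSMUSG00000097415.2, chromosome 7, 75769038 to 75782099, minus strand) was lower as well. It had 234, 245 and 238 CPM in IL-10-producing libraries and 294.5, 292 and 294 CPM in IL-10-negative libraries, again without overlap (log2 fold change -0.30, SE 0.021, adjusted p = 2.47e-11). Tmem250-ps averaged 17.9 ± 0.42 against 20.7 ± 0.549 CPM (-0.21, adjusted p = 0.00252).

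A pair of lower lincRNAs lies side by side on chromosome 5. Gm38102 stood at 5.41 ± 0.394 against 7.66 ± 0.490 CPM (a log2 fold change of -0.51, adjusted p = 8.64e-05) and 4932422M17Rik at 5.68 ± 0.175 against 7.61 ± 0.377 CPM (-0.42, adjusted p = 0.00033). Both overlap, on the opposite strand, the exons of AI480526, over 76.0% and 61.5% of their own exons. That lincRNA was itself lower at 3.22 against 4.25 CPM (-0.41, adjusted p = 0.00984). The sources used here do not state whether strand was used in counting, so reads of the 3 genes cannot be told apart. Gm38102 and 4932422M17Rik reached the mean of 5 only through the IL-10-negative libraries. Their direction is tied to the way they entered.

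A further pair of lower calls was lost when single libraries were left out. 4632415L05Rik stood at 7.42 ± 0.482 against 9.02 ± 0.580 CPM (a log2 fold change of -0.29, adjusted p = 0.00692), and its call was lost without IL-10-producing replicate 2 (adjusted p = 0.0567). 1300002E11Rik stood at 8.95 ± 0.312 against 10.5 ± 0.706 CPM (-0.23, adjusted p = 0.0189), and its call was lost without IL-10-producing replicate 1 (0.0715), IL-10-producing replicate 3 (0.0554) or IL-10-negative replicate 1 (0.116).

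**Figure D3:**
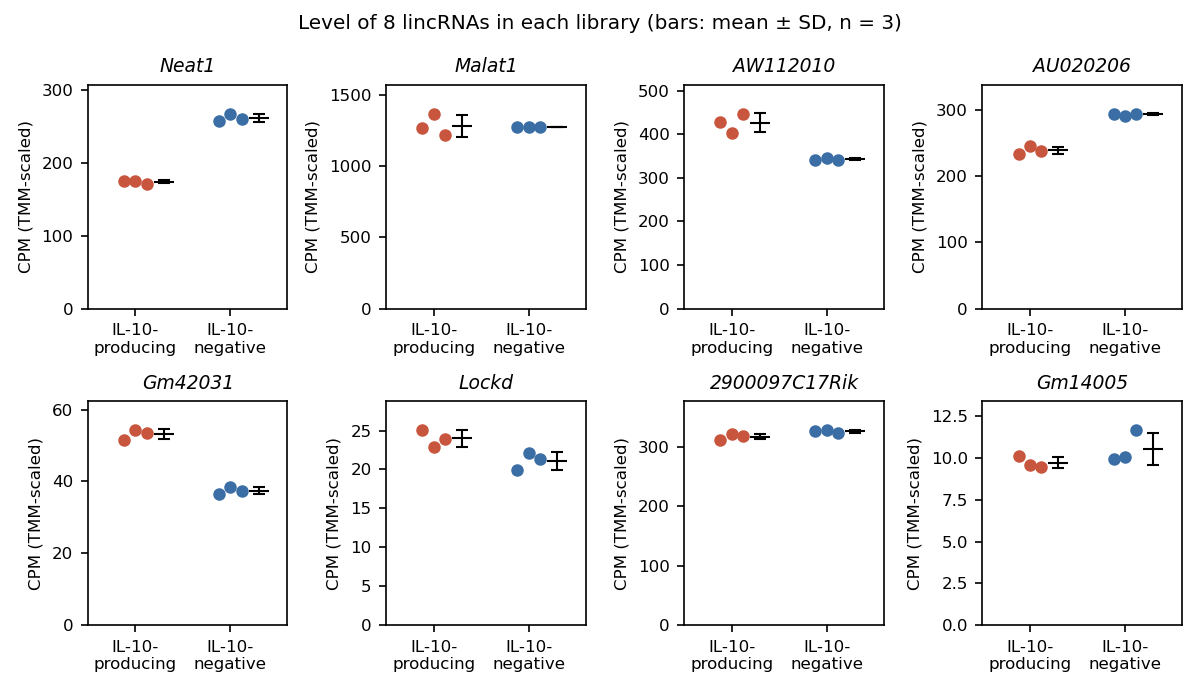
CPM of 8 lincRNAs in each library, with the mean and SD of 3 libraries per group, IL-10-producing at the left of each panel and axes starting at 0. Neat1 and AU020206 lie lower and AW112010, Gm42031 and Lockd higher in all 3 IL-10-producing libraries, while Malat1 and Gm14005 overlap and 2900097C17Rik differs by 0.04 on the log2 scale.

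Hosts of small nucleolar RNAs, the guides that direct modification of ribosomal RNA, are spliced transcripts whose introns release the small RNA. The list held 22 genes, of which 3 were among the 49, 17 had another row and 2 had none. Over the whole list 17 were tested, and 1 was higher and 3 were lower, against 17.1% and 18.6% of all genes. Snhg20 was lower, at 6.06, 6.12 and 5.48 CPM in IL-10-producing libraries and 7.28, 7.22 and 7.16 CPM in IL-10-negative libraries (a log2 fold change of -0.29, adjusted p = 0.0102). Snhg20 reached the mean of 5 only through the IL-10-negative libraries, so its direction is tied to the way it entered. Snhg12 stood at 10.96 ± 0.916 against 11.96 ± 0.550 CPM (adjusted p = 0.183). Snhg6 stood at 18.3 ± 0.850 against 16.7 ± 1.62 CPM (adjusted p = 0.110), and it passed the threshold without IL-10-negative replicate 3 (0.019). Outside the 49, Snhg4 was higher (8.66 ± 0.296 against 6.83 ± 0.470 CPM), and Snhg15 and 2410006H16Rik were lower (12.7 ± 0.536 against 14.4 ± 0.762 CPM, and 19.8 ± 1.38 against 29.0 ± 0.149 CPM).

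Of 7 lincRNAs and relatives tied to growth, DNA damage and p53, 3 were among the 49, and of 6 tested 1 was higher and 1 lower, near the 17.1% and 18.6% of all genes. Norad, which guards chromosome number in cultured cells, had 313, 321 and 319 CPM in IL-10-producing libraries and 327, 328 and 324.5 CPM in IL-10-negative libraries. The groups did not overlap but lay close together (log2 fold change -0.04, SE 0.020, adjusted p = 0.124), and the call was made with library size only (adjusted p = 0.00621). Pvt1, which neighbours the Myc oncogene and is amplified with it in tumours, had 8.26 ± 0.707 against 8.48 ± 0.366 CPM (-0.04, adjusted p = 0.739), a sign that turned without IL-10-producing replicate 2 (0.03). Myc itself had 68.2 ± 2.29 against 68.4 ± 0.718 CPM (adjusted p = 0.984). Cyrano, on no role list, had 237, 248 and 246 CPM in IL-10-producing libraries and 247, 257 and 253 CPM in IL-10-negative libraries, which overlapped (-0.05, adjusted p = 0.0716). It was called lower with library size only (0.00517) and without IL-10-producing replicate 2 (0.0468) or IL-10-negative replicate 1 (0.0486).

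Lockd, transcribed downstream of the cell-cycle inhibitor gene Cdkn1b, is known from mouse erythroid cells for an enhancer of Cdkn1b in its promoter. It was higher, at 25.04, 22.9 and 23.95 CPM in IL-10-producing libraries and 19.9, 22.1 and 21.3 CPM in IL-10-negative libraries (a log2 fold change of 0.18, adjusted p = 0.0085). Cdkn1b was lower, at 82.7 ± 1.43 against 92.0 ± 2.16 CPM (-0.16, adjusted p = 8.96e-05). The ratio of Lockd to Cdkn1b was 0.290 ± 0.0156 against 0.229 ± 0.0072, without overlap (exact permutation p = 0.1). The Lockd call was lost without IL-10-producing replicate 1 (adjusted p = 0.0562) or IL-10-negative replicate 1 (0.0605).

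The immune list of 14 had 1 gene among the 49, 6 with another row and 7 with none, and it holds Morrbid under both of its names. Of 4 tested, none was higher and 1 was lower, beside 17.1% and 18.6% of all genes. The 1 lower gene was Mirt1, at 0.439 against 1.25 CPM. The gene among the 49 was Gm14005, which RefSeq names Morrbid and which restrains the neighbouring death gene Bcl2l11 (Bim) in short-lived mouse myeloid cells. It had 10.1, 9.56 and 9.50 CPM in IL-10-producing libraries and 9.94, 10.1 and 11.7 CPM in IL-10-negative libraries, which overlapped (log2 fold change -0.12, SE 0.076, adjusted p = 0.244). Bcl2l11, 15771 bases away, was lower at 8.27 ± 0.514 against 19.3 ± 1.29 CPM (-1.22, adjusted p = 2.62e-13). The ratio of Gm14005 to Bcl2l11 was 1.18 ± 0.0499 in IL-10-producing and 0.547 ± 0.023 in IL-10-negative libraries, without overlap (exact permutation p = 0.1). Since Gm14005 was not called, this ratio mainly restates the Bcl2l11 difference, and a link between the 2 genes was not tested. None of the X-chromosome, imprinted or microRNA-host lists had a gene among the 49, and of their tested genes 0 of 3, 1 of 5 and 0 of 7 were higher and 0, 2 and 2 were lower, beside the same shares of all genes.

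Gm42418 and Gm26917 lie in a ribosomal RNA repeat unit on chromosome 17, where leftover ribosomal RNA can be counted as lincRNA. Both were lower. Gm42418 had 176, 184 and 157 CPM in IL-10-producing libraries and 195, 195 and 199 CPM in IL-10-negative libraries (a log2 fold change of -0.18, adjusted p = 0.000165). Its exon overlaps, over 99.5% jointly, the lincRNA AY036118 and the ribosomal RNA gene CT010467.1 on the opposite strand. CT010467.1 had 17390 CPM in IL-10-producing libraries, against 16151 CPM in IL-10-negative libraries, and was not called (adjusted p = 0.392). Gm26917 had 289.5 ± 7.49 against 305 ± 5.35 CPM (-0.08, adjusted p = 0.00743), and its call was lost without IL-10-negative replicate 3 (0.0526).

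A set of 10 lincRNAs matched, over at least 25% of their transcript, a protein-coding gene elsewhere in the genome, 8 of them on the opposite strand. Of these 10, 6 were higher and none was lower, against 24.7% and 22.9% of all genes of like level, and for 4 the coding gene was higher too. This set was formed after values were seen, and nothing particular to it is drawn from the count. Gm26825 had 503, 477 and 519.7 CPM in IL-10-producing libraries and 425, 403 and 413 CPM in IL-10-negative libraries (a log2 fold change of 0.27, SE 0.025, adjusted p = 2.12e-09), and Hspa8 had 2072 ± 16.8 against 1919 ± 32.3 CPM (0.11, adjusted p = 5.3e-06). Gm10076, a 384-base gene that matched Rpl41 of the large ribosomal subunit over 99.7% of its length on the same strand, had 414 ± 27.0 against 383 ± 3.91 CPM (0.11, adjusted p = 0.00328), beside 390.3 ± 18.1 against 369 ± 12.2 CPM for Rpl41 (0.08, adjusted p = 0.0203). Its call was lost in DESeq2 (adjusted p = 0.0829).

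Gm49164 matched the heterochromatin protein gene Cbx3, and both were higher, at 39.9 ± 0.812 against 32.6 ± 0.482 CPM (0.29, adjusted p = 1.87e-06) and at 146 ± 2.59 against 123 ± 2.42 CPM (0.26, adjusted p = 5.87e-09). Gm10874 matched Got2, the mitochondrial aspartate aminotransferase gene, and both were higher, at 9.37 ± 1.08 against 7.66 ± 0.552 CPM (0.29, adjusted p = 0.013) and at 182 ± 2.31 against 160.0 ± 1.957 CPM (0.19, adjusted p = 2.4e-07). The Gm10874 call was lost without IL-10-producing replicate 1 (0.0996) or IL-10-negative replicate 2 (0.0832). Gm4316 was higher (0.18, adjusted p = 0.0151) while its match Miga1 was not called (-0.02). Reads from matching loci can be counted at either, so these values are uncertain. Set wider, 18 of the 49 overlapped another gene on the opposite strand over at least 10% of their exons, 18 had at least 50% of their transcript matching any other gene at 95% identity, and 25 had either. Of the 24 with neither, 4 were higher and 6 lower. The shares were 17.1% and 18.6% over all genes, and 24.7% and 22.9% over genes in the level range of the 49. Nothing is drawn from counts this small.

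**Figure D4:**
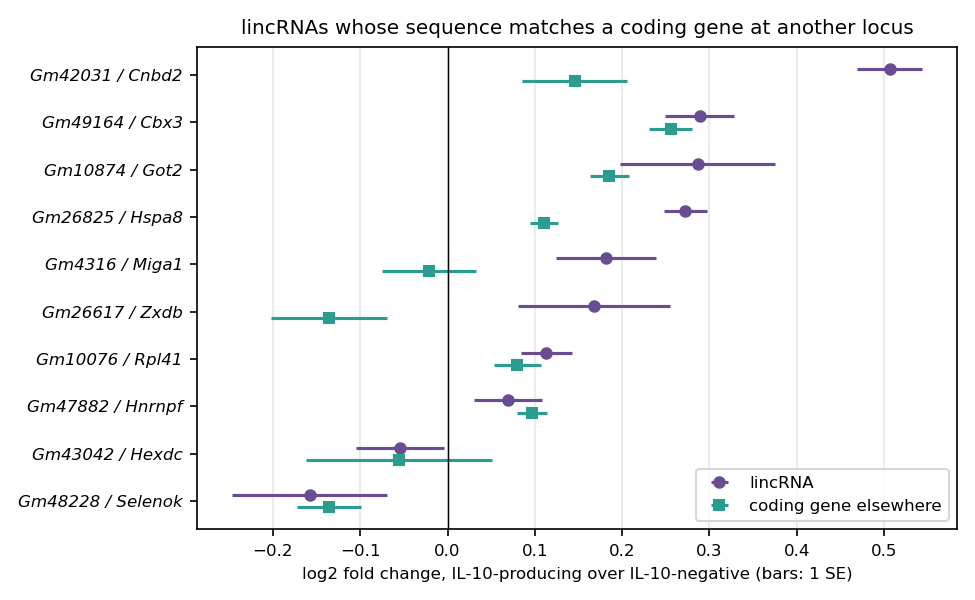
Log2 fold change (IL-10-producing over negative) with 1 SE, of the 10 lincRNAs that match a coding gene elsewhere (circles) and of that coding gene (squares). For Gm49164 and Cbx3 the values are 0.29 and 0.26, while Gm26825 at 0.27 lies above Hspa8 at 0.11, and Gm26617 and Zxdb, neither called, lie on opposite sides of 0.

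Further higher calls were small. Gm26541, antisense to Mob3a over 48.4% of its exons, had 17.9 ± 0.665 against 15.98 ± 0.441 CPM (a log2 fold change of 0.16, adjusted p = 0.0261), and Mob3a was higher as well (0.11). Its call was lost with library size only (0.0739) and without IL-10-producing replicate 3 (0.094), IL-10-negative replicate 1 (0.0719) or IL-10-negative replicate 3 (0.0809). Gm46430 had 22.4 ± 0.418 against 20.2 ± 0.780 CPM (0.15, adjusted p = 0.0217), and its call was lost with library size only (0.0679) and without IL-10-producing replicate 1 (0.0785), IL-10-negative replicate 2 (0.099) or IL-10-negative replicate 3 (0.0554). Gm42047 had 368 ± 13.4 against 353 ± 3.02 CPM (0.06, adjusted p = 0.0376). Its call was lost with library size only (0.308) and without any one of 5 libraries (adjusted p from 0.0548 to 0.220), the exception being IL-10-producing replicate 3. Gm26778 was the most scattered, at 5.84, 6.90 and 9.97 CPM in IL-10-producing libraries and 12.1, 6.16 and 2.42 CPM in IL-10-negative libraries. All of its exons overlap Kctd12 on the opposite strand, and it was not called (adjusted p = 0.757).

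The nearest protein-coding gene was tested for 47 of the 49. Over all 49, it overlapped the lincRNA in 9 cases, and the median gap was 4607 bases. Both genes of a pair were called in the same direction 3 times and in opposite directions 4 times. Only the lincRNA was called in 7 pairs as higher and in 7 as lower. Only the neighbour was called in 5 as higher and in 5 as lower, and neither gene in 16. Of all genes tested 35.7% were called, and nothing is drawn from the number of pairs. Across the 47 pairs, Pearson's r of the log2 fold changes was 0.03 and Spearman's rho -0.01, a description over genes from the same libraries. The opposite pairs included Neat1 with Frmd8, which lies 4223 bases away and encodes a partner of the iRhom proteins. Frmd8 was higher at 148 ± 2.41 against 134.5 ± 3.59 CPM (a log2 fold change of 0.14, adjusted p = 6.65e-05), and the Neat1 to Frmd8 ratio was 1.17 ± 0.0112 against 1.94 ± 0.0905 (exact permutation p = 0.1). AC160336.1 was set against Ptger2, a prostaglandin E2 receptor gene that was lower at 13.3 ± 0.124 against 20.6 ± 0.565 CPM (-0.63, adjusted p = 1.02e-09), though 350993 bases away. Lockd with Cdkn1b and Gm10076 with Spry2 were the other opposite pairs. The pairs with the same direction were AU020206 with Akap13 (706 ± 7.39 against 764.5 ± 10.0 CPM, -0.11), 4932422M17Rik with the histone methyltransferase gene Setd1b (81.2 ± 2.25 against 92.6 ± 1.29 CPM, -0.19) and Gm26541 with Mob3a. Zfp791, beside Gm42031, had 0.408 ± 0.131 against 0.223 ± 0.0153 CPM and was not called (log2 fold change 0.85, adjusted p = 0.105).

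**Figure D5:**
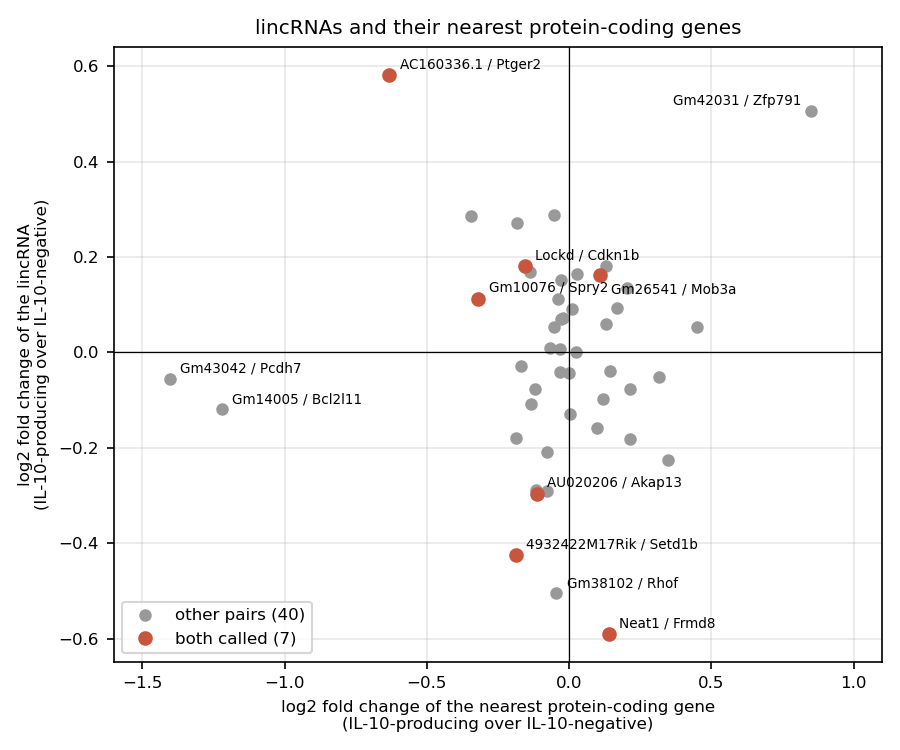
Log2 fold change of each lincRNA (vertical) against that of its nearest protein-coding gene (horizontal), both IL-10-producing over IL-10-negative, for 47 pairs. The 7 pairs with both genes called lie in all 4 quadrants, and Gm14005 with Bcl2l11 stands far left at -1.22 for Bcl2l11.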

How the data were processed

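RNA sequencing of 6 libraries of mouse lung ILC2s was analysed, 3 IL-10-producing and 3 IL-10-negative. The submitters' processing notes name STAR 2.5.3a, Partek, bcl2fastq 2.17.1.14 and the mm10 build. The annotation release and the use of strand are not given in the sources used here. The authors deposited estimated counts per gene, not normalized, of which 50.2% of values were not whole. They also deposited a normalized signal table, in which each value is 1 factor of its library multiplied by the estimated count after adding 1 (all values, within 1%), and this table chose the 49 lincRNAs.

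The estimated counts were rounded and tested with edgeR 4.0.16 (R 4.3.3, TMM factors, filterByExpr at a minimum count of 10 and total of 15, group as the only term, adjusted p under 0.05). Of the gene identifiers, 19917 had the same version in GENCODE M21, which gave current names (33 of the 49 differ from the deposited clone names), exons and transcripts, and 45 of the 49 had the same coordinates. Of the 49, 2 are no longer typed lincRNA there (B230354K17Rik and Gm26885). Sequence matches were found with BLAST 2.17.0 at 95% identity over at least 100 bases. The script was tested on simulated counts.

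The members, role lists and marker lists were chosen with earlier results of these data known. Named lincRNAs are the 10 highest per kb of exon, up to 12 largest changes in each direction among those called without overlap, those on a role list, the 3 on either side of the threshold, and the neighbours of the changed ones. Other genes named, the ratios and the Pumilio, miR-7 and copy searches were chosen after values were seen. Libraries of the same group differed from each other by 2.39 to 2.96 times what counting error gives, so none was a copy. Alternatives were other scalings, filters and thresholds, DESeq2 1.42.0, limma 3.58.1 on log2 of the deposited normalized values plus 1 or 5, a replicate block and leaving out each library.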

Additional observations from a re-analysis of the deposited data

How the results depend on the processing

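The counts of the 49 lincRNAs called, 12 higher and 10 lower, stayed within 1.5 times of these under the other scalings, filters and tools. DESeq2 called 11 higher and 10 lower (5400 genes in all, against 5943 with edgeR), and limma on the deposited normalized values called 13 higher and 10 lower with a pseudocount of 1 and 12 and 10 with 5. Library size only gave 9 higher and 14 lower. Leaving out each library gave 9 to 11 higher, 9 to 11 lower and 5232 to 5519 genes in all. These were not always the same genes, since 8 to 10 of the 12 higher and 9 to 10 of the 10 lower calls were kept. The member threshold moved the counts by its own construction, since fewer genes remain: a mean of at least 10 left 5 lower, and a mean of at least 20 left 6 higher and 4 lower. A required change of 2-fold left 0 higher and 0 lower. The sign of Malat1 turned with library size only (a log2 fold change of -0.0213), and leaving out each library gave Malat1 -0.0377 to 0.0505 and Pvt1 -0.0944 to 0.0324, negative for Malat1 and positive for Pvt1 without IL-10-producing replicate 2, and the cause was not tested. Over the 29 named lincRNAs and their alternatives, 374 values kept their direction and side of the threshold, 24 fell short of it and 5 newly passed it. Whether libraries with the same replicate number share a mouse, culture or day is not in the labels. Their deviations from the group means correlated at -0.020, -0.005 and -0.024, and those of libraries with different numbers at -0.013 to 0.030. These values cannot decide it, since the spread among libraries may be technical. With the replicate block 5817 genes were called, with 12 and 10 of the 49. Every one of the 49, which were chosen by level, had at least 136 counts in each library.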
